A study of Mus musculus with 4 samples.

Results

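The genes described here are 10 genes of epithelial junctions and the simple-epithelial cytoskeleton, read in cultured C57BL/6 mouse cells. They are the cell adhesion genes Cdh1 and Epcam, the claudins Cldn3, Cldn4, Cldn6 and Cldn7, the keratins Krt8, Krt18 and Krt19, and the splicing regulator gene Esrp1. The members were chosen by symbol, with earlier results of these data known. All 10 were found among the 19938 genes measured, each with 1 probe set. RNA of 4 cultures was hybridised to 1 Affymetrix gene array each. The cultures were embryonic stem (ES) cells, osteoblasts released from newborn skull bone with trypsin and collagenase, and mesenchymal stem cells (MSC), taken as the cells of femur and tibia marrow that adhered to plastic. The MSC were grown either without basic fibroblast growth factor (bFGF) or with it at 1 ng/ml. The series set out to compare effects of bFGF on these marrow cells, and the labels name the ES cells and osteoblasts as controls. The osteoblast culture pooled the cells of the last digestions and neither it nor the MSC were sorted, while for the ES cells no culture protocol is given.

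Epithelial cells hold to their neighbours through adherens junctions, in which E-cadherin (Cdh1) binds E-cadherin of the next cell, and through tight junctions, in which claudins form the seal between cells. Their cytoskeleton carries keratins, of which Krt8 and Krt18 polymerise as an obligate pair in simple epithelia. Mouse ES cells, although not an epithelial tissue, grow as compact colonies held together by E-cadherin, whereas fibroblast-like bone and marrow stromal cells use other cadherins and the filament protein vimentin.

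Levels are log2 values, so a difference of 1 is a 2-fold difference. The floor is the median of the probe sets with 1 gene symbol on an array, at 6.46 in ES cells, 6.46 in osteoblasts, 6.29 in MSC without bFGF and 6.32 in MSC with bFGF. A gene was called higher or lower when it differed by 2-fold and its level in the higher array of the pair lay above that array's floor. With 1 array per group there is no test and no error between cultures, and no difference below has a replicate check. Levels of single genes were not compared with each other, because probe sets differ in brightness. Summed levels of marker lists are therefore weighted to the brightest probe sets of a list, and also hold the background of genes under the floor.

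The labels were set against marker genes first. In the ES cell array 6 of 8 ES cell markers lay above the floor, with Pou5f1 at 10.63 and Nanog at 9.24, while Zfp42 (6.02) and Esrrb (6.40) lay under it. None of the 5 measured osteoblast markers (Alpl, Sp7, Ibsp, Dmp1 and Phex) lay above the floor in the osteoblast array. Of 9 measured marrow stromal markers 4 lay above the floor in MSC without bFGF and 6 in MSC with bFGF, and Cxcl12, Lepr and Thy1 lay under it in both. These markers did not single out the MSC arrays, since 7 of 9 lay above the floor in osteoblasts and 6 of 9 in ES cells. Their summed level (log2 of the sum of unlogged levels) was 11.99 in osteoblasts, 10.82 in ES cells, and 10.61 and 10.74 in MSC without and with bFGF. Macrophage markers were above the floor for 9 of 9 genes in osteoblasts and in MSC with bFGF, 6 of 9 in MSC without bFGF and 8 of 9 in ES cells. The summed level of the macrophage markers was 14.83, 13.37, 10.48 and 12.02 in that order. Bulk RNA cannot tell fewer cells of a type from less RNA per cell.

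Promoter sequences are shown as a description. The repressors Snail and Zeb are known to bind the E-box hexamer CAGGTG, read on the other strand as CACCTG. RefSeq promoters of the GRCm38.p6 build (250 bases before to 50 after a start site) matched 7 of the 10 genes with 8 entries; Cdh1, Krt19 and Esrp1 were not matched. The 250 bases before the start are given 5′ to 3′ on the gene's strand, with the hexamer in capitals. They lie at chr17:87635729-87635978 on the plus strand for Epcam, chr17:23679115-23679364 on the plus strand for Cldn6, chr15:102004343-102004592 on the minus strand for Krt8, chr15:102027966-102028215 on the plus strand for Krt18, and chr5:134985964-134986213 on the plus strand for Cldn3. Cldn3 is shown as the gene that was not called against ES cells.
Epcam: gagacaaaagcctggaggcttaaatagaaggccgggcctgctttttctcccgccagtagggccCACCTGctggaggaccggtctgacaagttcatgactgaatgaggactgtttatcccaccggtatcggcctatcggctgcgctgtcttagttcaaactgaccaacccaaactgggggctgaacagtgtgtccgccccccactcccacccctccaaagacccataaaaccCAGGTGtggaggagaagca
Cldn6: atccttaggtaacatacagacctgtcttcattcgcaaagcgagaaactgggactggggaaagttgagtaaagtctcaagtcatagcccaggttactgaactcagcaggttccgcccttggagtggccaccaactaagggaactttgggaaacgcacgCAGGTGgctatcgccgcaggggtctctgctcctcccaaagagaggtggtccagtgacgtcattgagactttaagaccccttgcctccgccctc
Krt8: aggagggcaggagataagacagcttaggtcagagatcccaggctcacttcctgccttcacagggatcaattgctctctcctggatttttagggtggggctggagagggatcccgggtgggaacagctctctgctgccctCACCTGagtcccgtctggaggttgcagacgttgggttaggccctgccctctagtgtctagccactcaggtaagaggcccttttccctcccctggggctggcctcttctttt
Krt18: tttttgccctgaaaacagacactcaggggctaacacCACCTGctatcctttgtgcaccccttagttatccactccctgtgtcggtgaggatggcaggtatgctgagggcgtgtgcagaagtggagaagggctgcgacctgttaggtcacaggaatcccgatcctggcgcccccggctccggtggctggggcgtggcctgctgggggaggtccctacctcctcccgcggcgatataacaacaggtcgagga
Cldn3: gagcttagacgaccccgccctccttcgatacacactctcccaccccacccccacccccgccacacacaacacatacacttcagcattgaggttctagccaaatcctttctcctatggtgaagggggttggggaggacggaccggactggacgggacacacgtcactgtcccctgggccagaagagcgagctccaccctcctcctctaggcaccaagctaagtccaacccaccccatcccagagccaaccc

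The hexamer, on either strand, was present in an entry of all 7 matched genes over the 300 bases. By entry it was present in 7 of their 8, against 20.2% of all 32851 promoter entries. The further counts below are by gene while the shares are by entry, so the units differ. Counting bases from the start site, with -1 the last base before it, Epcam held it from -187 and from -19, Cldn6 from -93, Krt8 from -111 and Krt18 from -214. Cldn4 held it from -14 and Cldn7, at the second of its 2 start sites, from -97 and from -57. In Cldn3 the match began 32 bases after the start, outside the sequence printed, and Cldn6 and Cldn4 held a further match after the start. In the 250 bases before the start alone 6 of the 7 genes held it, all but Cldn3, against 17.2% of entries. These are matches of letters and not measured sites, and a part of the hexamer in the levels of the genes was not tested. Other hexamers looked at were the Grainyhead hexamer AACCGG or CCGGTT, found in 1 of the 7 genes and 6.83% of entries, and the GC box GGGCGG or CCGCCC, found in 5 of the 7 genes and 35.7% of entries.

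The adhesion genes were high in ES cells and under the floor in the other arrays. Cdh1, encoding E-cadherin, stood at 10.01 in ES cells, 6.09 in osteoblasts, 5.99 in MSC without bFGF and 5.95 in MSC with bFGF. The ES cell level was 3.92 above the next highest, a 15.1-fold difference, and the other arrays lay within 0.14 of each other. Epcam, a surface adhesion protein that binds claudin-7, stood at 9.61, 5.21, 5.17 and 5.19 in the same order. It was 21.1-fold lower in osteoblasts than in ES cells, and its levels in the other 3 arrays spanned 0.04.

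Claudins were more varied. Cldn6, a claudin of embryonic epithelia and pluripotent cells, stood at 10.28 in ES cells, 5.63 in osteoblasts, 5.09 in MSC without bFGF and 4.98 in MSC with bFGF. It had the largest difference of the 10 genes in each comparison with ES cells, 25.0-fold against osteoblasts and 39.2-fold against MSC with bFGF. Cldn4, a barrier-forming claudin, stood at 8.65, 6.00, 5.77 and 6.22. Cldn7, the claudin that partners Epcam, stood at 7.67, 5.56, 5.48 and 4.95. Both lay above the floor in ES cells alone, and their differences from ES cells, between -2.87 and -2.10, were the smallest of the genes called.

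Cldn3 did not share the pattern. This claudin, also barrier-forming, stood at 6.72 in ES cells, 6.60 in osteoblasts, 6.62 in MSC without bFGF and 6.10 in MSC with bFGF. Its level in ES cells exceeded the next by 0.09, and it was not called in any of the 6 pairs. Cldn3 and Cldn4 are next to each other in the order of protein-coding genes on chromosome 5, and Cldn4 was called in the 3 pairs with ES cells while Cldn3 was not.

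The keratins of simple epithelia followed Cdh1. Krt8 stood at 11.04 in ES cells, 6.88 in osteoblasts, 6.83 in MSC without bFGF and 6.90 in MSC with bFGF. It was the 1 gene of the 10 above the floor in all 4 arrays, and outside ES cells its levels spanned 0.06. Its polymerisation partner Krt18, the next protein-coding gene on chromosome 15, stood at 10.27, 5.78, 6.23 and 5.72. Krt19, a type I keratin of simple and ductal epithelia, stood at 9.49, 6.06, 5.33 and 4.88. Outside ES cells all its values lay under the floor, and Krt19 had there the widest spread of the 10 genes, 1.18.

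Esrp1, an RNA-binding protein that directs epithelial splicing of transcripts such as that of the receptor Fgfr2, stood at 8.26 in ES cells, 4.79 in osteoblasts and 4.60 in each MSC array. It differed by -3.47 in osteoblasts minus ES cells. Its deviations from its own mean lay closest to the average of the 10 genes, at a root mean square distance of 0.08, and those of Cldn3 lay farthest, at 1.40.

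**Figure D1:**
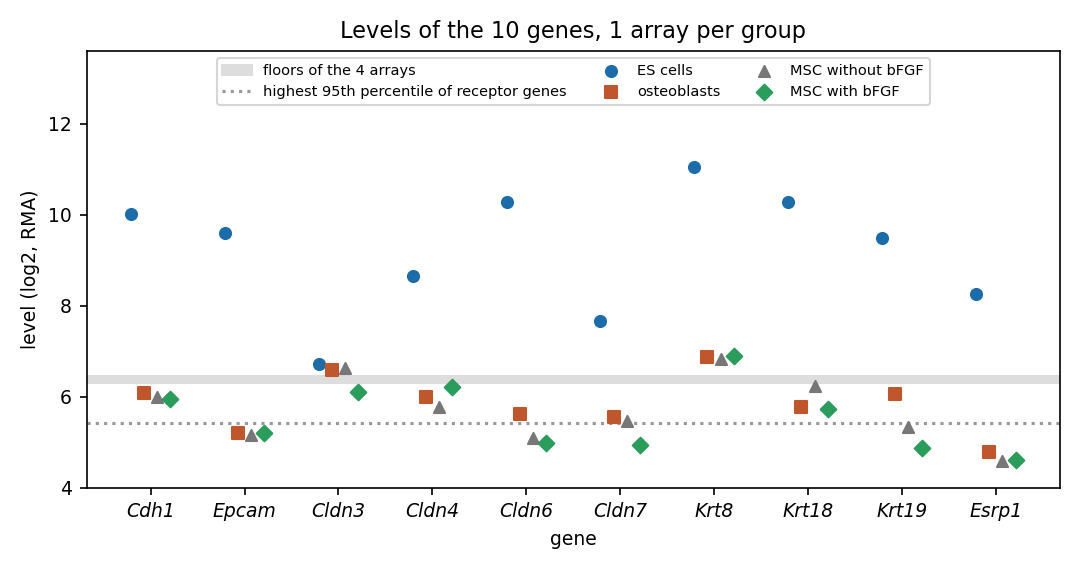
Level (log2, RMA) of each of the 10 genes in the 4 arrays, 1 point per array. The grey band spans the floors of the arrays and the dotted line is the highest 95th percentile of olfactory and vomeronasal receptor genes (5.43). ES cells stand apart for every gene but Cldn3, and the other 3 arrays lie near or under the band.

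All 10 genes lay above the floor in ES cells, 2 in osteoblasts and in MSC without bFGF (Krt8 and Cldn3), and 1 in MSC with bFGF (Krt8). Being under the floor does not show that a transcript is missing. Against a lower mark, the 95th percentile of 1190 olfactory and vomeronasal receptor genes on the same array (5.22 to 5.43), 8 of the 10 genes were above it in osteoblasts, 6 in MSC without bFGF and 5 in MSC with bFGF.

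Against ES cells the counts were alike in the osteoblast and MSC comparisons, which share the ES cell array and so are not independent. The 10 genes were chosen with earlier results of these data known, so the shares of all genes beside them are a description and not a test. In osteoblasts 9 of the 10 genes were called lower and 0 higher, where 8.83% of 10927 genes above the floor were called lower and 12.3% higher. The median of the 10 genes was -3.69 and that of all genes above the floor 0.03. In MSC without bFGF 9 were called lower and 0 higher, against 11.8% lower and 10.4% higher of 10977 genes, and the median was -4.03 against 0.10. In MSC with bFGF 9 were called lower and 0 higher, against 10.6% lower and 11.3% higher of 10932 genes, and the median was -4.10 against 0.12.

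Most of these were among the larger differences on the arrays. For Cldn6, 11 of the 10927 genes in osteoblasts minus ES cells lay as low or lower, itself included. For Krt18 the number was 14, for Epcam 15, for Krt8 21 and for Cdh1 27. Cldn7, the smallest called, ranked at 195, whereas Cldn3 ranked at 4531. The lower level of all the called genes but Krt8 was under the floor, so the sizes depend on background. As a technical yardstick, where a gene had several probe sets their differences scattered about the gene's mean with an SD of 0.36 to 0.42 in these pairs.

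The ES cell array also had signal for other embryonic lineages in which Krt8 and Krt18 are expressed. Of 7 trophoblast markers 5 lay above the floor there (Cdx2 at 7.98, Eomes at 9.19, Hand1, Tfap2c and Krt7), against 0 in osteoblasts and 1 in each MSC array. Elf5 and Gata3 lay under it in ES cells. Their summed level was 10.51 in ES cells and 8.49 to 8.52 in the other arrays. Of 8 primitive endoderm markers 6 lay above the floor in ES cells, with Gata6 at 8.03 and Foxa2 at 7.61, while Afp and Sox7 lay under it. The counts were 1 in osteoblasts, 2 in MSC without bFGF and 3 in MSC with bFGF, and the summed levels 10.38, 11.31, 9.35 and 10.20 from ES cells to MSC with bFGF, with Dab2, which macrophages also express, at 11.06 in osteoblasts. The part of such cells in the levels of the 10 genes was not tested.

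**Figure D2:**
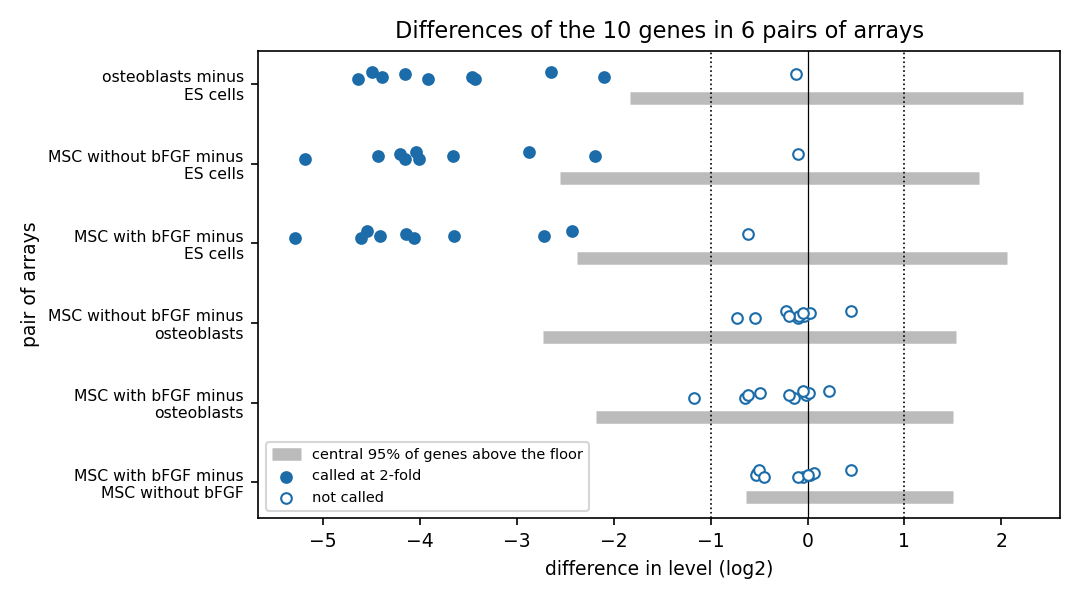
Differences in level (log2) of the 10 genes in the 6 pairs of arrays, 1 point per gene, filled where called at 2-fold. Grey bars span the central 95% of genes above the floor and dotted lines mark 2-fold. In the pairs with ES cells 9 genes lie between -5.29 and -2.10 and Cldn3 between -0.62 and -0.09. In the other pairs no gene is called.

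The 10 genes differed little between MSC with and without bFGF. Of the 10 genes 0 were called higher and 0 lower, where 4.09% of 10483 genes above the floor were called higher and 0.467% lower. Only Krt8 and Cldn3 passed the floor and so could be called. Differences of MSC with minus without bFGF ran from -0.53 for Cldn7 to 0.45 for Cldn4, with a median of -0.07. Cldn3 was at -0.52, Krt18 at -0.50 and Krt19 at -0.45, and Cdh1, Epcam and Krt8 lay between -0.04 and 0.06. All 10 lay inside the central 95% of the receptor genes, -0.97 to 0.67, and the SD over probe sets within a gene was 0.29 in this pair.

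Differences between MSC and osteoblasts were also mostly small. For MSC without bFGF minus osteoblasts 0 of 10 were called in either direction, against 8.17% higher and 13.3% lower of 10973 genes, with a median of -0.09. For MSC with bFGF minus osteoblasts 0 were called, against 7.5% higher and 9.71% lower of 10798 genes, with a median of -0.16. In each of these pairs 2 of the 10 genes passed the floor. The widest difference was that of Krt19, -1.18 for MSC with bFGF minus osteoblasts, from 6.06 to 4.88 with both levels under the floor. It was the 1 value of the 10 outside the central 95% of receptor genes in that pair, -0.87 to 0.73.

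The other junction and epithelial genes, 85 measured genes of 6 lists, divided by role. The 10 genes are in none of these lists, which were also chosen with earlier results of these data known. In osteoblasts 18 of the 85 were called lower than in ES cells and 0 higher, with a median of -0.39. In MSC without bFGF 22 were lower and 1 higher (-0.39), and in MSC with bFGF 19 were lower and 1 higher (-0.51). Of all genes above the floor 8.83%, 11.8% and 10.6% were called lower in these comparisons, and 12.3%, 10.4% and 11.3% higher. The list counts below are out of all measured genes. All medians of list genes are likewise over all measured genes, including those that could not be called. Against ES cells 10 surface genes passed the floor, 6 or 7 desmosome genes, 10 or 11 adherens junction genes and 7 tight junction genes. So did 1 or 2 other keratins and 5 transcription and splicing genes. Of the 85 genes 40 or 41 passed the floor in these pairs, and the others could not be called.

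Of 17 genes of epithelial surface, polarity and proteases 8 were lower in osteoblasts than in ES cells, 10 in MSC without bFGF and 8 in MSC with bFGF, and 0 were higher. The list medians were -1.13, -1.30 and -1.32. The protease inhibitor Spint2 stood at 9.70 in ES cells, 6.51 in osteoblasts, 5.56 in MSC without bFGF and 6.61 in MSC with bFGF. Lsr, a protein of tricellular junctions, stood at 8.66, 5.67, 5.70 and 5.82. The receptor Erbb3 and the polarity genes Patj and Pard6b were also lower in all 3 arrays, with differences of -2.23 to -1.30. The membrane-actin linker Ezr differed by -1.68 to -1.21 with levels above the floor throughout.

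Desmosomes, the junctions to which keratin filaments attach, were split. Dsp, the desmoplakin that links keratin to the plaque, stood at 9.16 in ES cells, 6.09 in osteoblasts, 5.18 in MSC without bFGF and 5.56 in MSC with bFGF. The desmosomal cadherins Dsc2 and Dsg2 were lower than in ES cells in all 3 arrays, with Dsc2 at -2.74 to -2.44. Perp, a desmosomal membrane protein and p53 target, differed from the 10 genes in that it stood at 8.79 in osteoblasts and 8.65 in ES cells but at 4.84 and 4.94 in MSC without and with bFGF. In all, 3 of 11 measured desmosome genes were lower in osteoblasts than in ES cells (median -0.01) and 5 in each MSC array (medians -0.32 and -0.57), and 0 were higher.

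Most adherens junction genes were not called against ES cells. Ctnnb1, the catenin that binds the cadherin tail, stood at 11.28, 11.08, 10.75 and 10.58 from ES cells to MSC with bFGF, and was named after its values were seen. Of 11 genes 2 were lower than in ES cells in each of the 3 arrays and 0 higher, with medians of -0.20, -0.53 and -0.46. They were Afdn (-1.56) and Jup (-1.08) in osteoblasts, and Jup (-3.18 and -1.99) and the placental cadherin gene Cdh3 (-1.19 and -1.59) in MSC without and with bFGF. Cdh3, next to Cdh1 on chromosome 8, stood at 6.72 in ES cells and 6.98 in osteoblasts, unlike Cdh1. Ctnnd1, the p120 catenin that binds the cadherin tail, was not called against ES cells but was called lower in MSC than in osteoblasts, with differences of -1.44 without and -1.33 with bFGF, from 10.14 in osteoblasts.

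Few tight junction genes other than the members were called against ES cells, where 7 of the 19 measured passed the floor. Of 19 measured genes 1, F11r, was lower than in ES cells in each array, and Cldn12 was higher in both MSC arrays, by 1.07 without and 1.54 with bFGF. List medians were -0.25 in osteoblasts, -0.22 in MSC without and -0.29 in MSC with bFGF. Among 14 other keratins 0 were called in osteoblasts and 1 was lower in each MSC array, the simple-epithelial Krt7, at 6.67 in ES cells against 5.41 and 5.39. The medians were -0.04, 0.08 and -0.19. The keratinocyte markers Krt5, Krt14, Krt15, Trp63 and Dsg3 lay under the floor in all 4 arrays.

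Of 13 epithelial transcription and splicing genes 4 were lower in osteoblasts than in ES cells, 3 in MSC without and 2 in MSC with bFGF, and 0 were higher, with medians of -0.62, -0.74 and -0.65. The factor Tfap2c, which the pluripotent epiblast and trophoblast also use, stood at 8.19 in ES cells, 5.01 in osteoblasts, 5.00 in MSC without and 4.81 in MSC with bFGF. Esrp2, the paralogue of Esrp1, differed by -1.12, -1.40 and -1.90, and Grhl3 by -1.09 in osteoblasts and -1.62 in MSC without bFGF. Klf5, a factor shared by epithelia and ES cells, departed from Esrp1. It stood at 9.12 in ES cells and 6.56 in osteoblasts, but at 8.29 and 8.62 in MSC without and with bFGF.

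**Figure D3:**
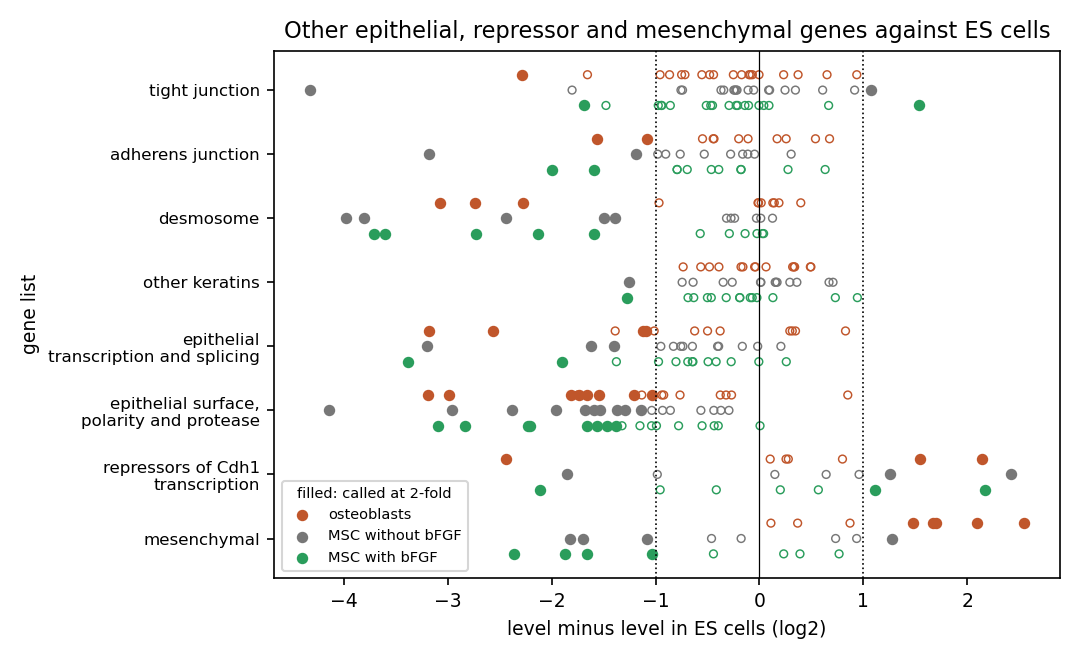
Level minus the level in ES cells (log2) for the measured genes of 8 lists, 1 point per gene and array, filled where called at 2-fold. Dotted lines mark 2-fold. Filled points of the surface, desmosome and adherens lists lie on the lower side only. Among the repressors Snai2 and Zeb2 lie on the higher side and Twist2 on the lower side in all 3 arrays.

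In the comparison of the MSC arrays 4 of the 85 genes were called higher with bFGF and 1 lower, where 26 of the 85 passed the floor. Over all genes above the floor 4.09% were called higher and 0.467% lower. F11r, the junctional adhesion molecule JAM-A that leukocytes also carry, stood at 7.83 with and 5.19 without bFGF, a difference of 2.64. The membrane protease St14 stood at 7.77 against 5.94, the plakoglobin gene Jup at 7.03 against 5.84, and Spint2 at 6.61 against 5.56. Cldn5, a claudin of endothelium, was lower, at 5.65 against 6.84. By list these were 1 higher and 1 lower of 19 tight junction genes, 1 higher of 11 adherens junction genes and 2 higher of 17 surface genes, with medians of -0.21, -0.02 and -0.10. Desmosome, other keratin and epithelial transcription genes had 0 calls and medians of -0.09, -0.16 and -0.07. Macrophage markers were also higher with bFGF in this pair, with 9 of 9 above the floor against 6 of 9, and summed levels of 13.37 and 10.48. Without bFGF Adgre1, Ptprc and Cybb lay under the floor. In osteoblasts, where the macrophage summed level was 14.83, F11r stood at 7.23, St14 at 6.67, Jup at 7.94 and Spint2 at 6.51. The part of macrophages in the 4 higher genes was not tested. Endothelial markers Cdh5, Pecam1, Kdr and Tek lay under the floor in both MSC arrays.

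**Figure D4:**
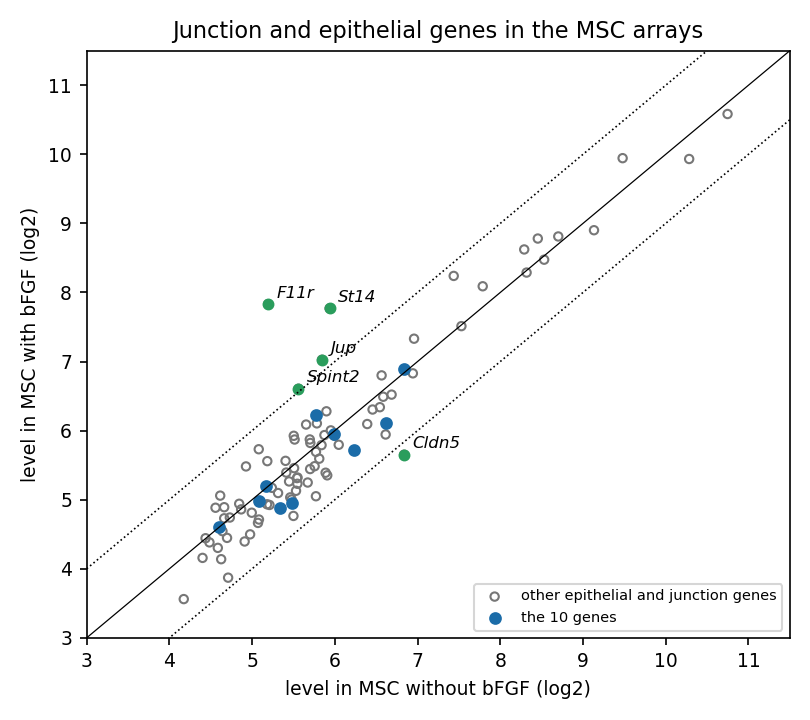
Level (log2) in MSC with bFGF against MSC without bFGF for the 10 genes (blue) and 85 other junction and epithelial genes (open, green where called at 2-fold). Dotted lines mark 2-fold about the line of equal levels. The 10 genes lie between -0.53 and 0.45 of that line, while F11r, St14, Jup and Spint2 lie above and Cldn5 below.

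Transcription factors that repress Cdh1 were above the floor in all 4 arrays for 7 of 7 genes, and only part of them differed from ES cells. Snai2 (Slug) stood at 6.97 in ES cells, 9.11 in osteoblasts, 9.39 in MSC without bFGF and 9.14 in MSC with bFGF. Zeb2 stood at 7.29, 8.83, 8.55 and 8.40. Twist2 ran the other way, at 9.19, 6.76, 7.35 and 7.08. Snai1 stood at 7.70, 7.80, 6.72 and 6.74, Zeb1 at 7.56, 8.36, 7.71 and 7.15, Twist1 at 8.64, 8.89, 9.59 and 9.20, and Tcf4 at 8.50, 8.78, 9.14 and 8.70, and none of these 4 was called against ES cells. Thus 2 of 7 were higher and 1 lower in each comparison with ES cells, with medians of 0.28, 0.64 and 0.20, and between the MSC arrays 0 were called (median -0.27). Of all genes above the floor 10.4% to 12.3% were called higher and 8.83% to 11.8% lower in the comparisons with ES cells.

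Mesenchymal genes also had signal in the ES cell array, mostly lower than in osteoblasts. All 8 mesenchymal genes lay above the floor in ES cells, with the filament gene Vim at 12.75, N-cadherin (Cdh2) at 9.59, Cdh11 at 10.00, fibronectin (Fn1) at 12.07 and the collagen Col1a1 at 10.92. In osteoblasts 5 of 8 were higher than in ES cells and 0 lower (median 1.57), namely Col3a1 (2.55), Col1a2 (2.09), Cdh11 (1.70), Col1a1 (1.67) and S100a4 (1.47). In MSC without bFGF 1 was higher, Col1a2, and 3 were lower, Cdh11, Col1a1 and Cdh2 (median -0.32). With bFGF 0 were higher and 4 lower, those 3 and Col3a1 (median -0.74). Of all genes above the floor 12.3% were called higher and 8.83% lower in osteoblasts than in ES cells. The shares were 10.4% and 11.8% in MSC without bFGF, and 11.3% and 10.6% with bFGF. Between the MSC arrays 1 of 8 was lower with bFGF, Col3a1, and 0 higher (median -0.50). The shares of all genes above the floor there were 0.467% lower and 4.09% higher. Of 5 fibroblast markers 4 lay above the floor in ES cells, with a summed level of 11.60 against 13.29 in osteoblasts and 10.18 and 9.67 in MSC without and with bFGF, and Fap lay under it in all arrays. The part of fibroblasts in the mesenchymal levels of the ES cell array was not tested.

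Few genes next to the members on the chromosome were called against ES cells. Taking 2 protein-coding genes on each side of each member in RefSeq order, 30 neighbours that are not members were measured. In osteoblasts 0 of the 30 were called lower than in ES cells and 0 higher. In MSC without bFGF 1 was lower and 3 higher, and with bFGF 1 was lower and 2 higher, the lower one being Cdh3 in each. Of all genes above the floor 8.83% to 11.8% were called lower and 10.4% to 12.3% higher in these pairs. Neighbours with no level above the floor could not be called, so the counts out of 30 cannot be set directly against these shares. Cldn9, the claudin gene beside Cldn6 on chromosome 17, stood at 5.90, 5.89, 5.84 and 5.79 from ES cells to MSC with bFGF, under the floor throughout. Krt14 and Krt15, near Krt19 on chromosome 11, were under it as well.

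Of the 10 other genes nearest to the average profile of the 10 genes over the 4 arrays, 2 (Nanog and Utf1) belong to the ES cell marker list. Nearness was the root mean square distance between levels less each gene's own mean. The ranking left out genes with Gm or Rik symbols, small RNAs, 1 gene not reported here, and genes above the floor in no array. Nanog was nearest, at a distance of 0.03, with levels of 9.24, 5.95, 5.76 and 5.56. The peptide hormone gene Apela (0.09), the RNA-binding protein gene Lin28a (0.10), Tfap2c (0.11) and Utf1 (0.14) came next. They were followed by Gbp2b, Nr0b1, the gelatinase gene Mmp9, Foxh1 and the laminin gene Lama5 at 0.16 to 0.20. The nearest to Cdh1 alone were Podxl (0.03), Rps6ka6 (0.10) and Fgf5 (0.12). With 4 arrays, of which 1 stands apart, any gene high in ES cells alone by a similar amount will be near.

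**Figure D5:**
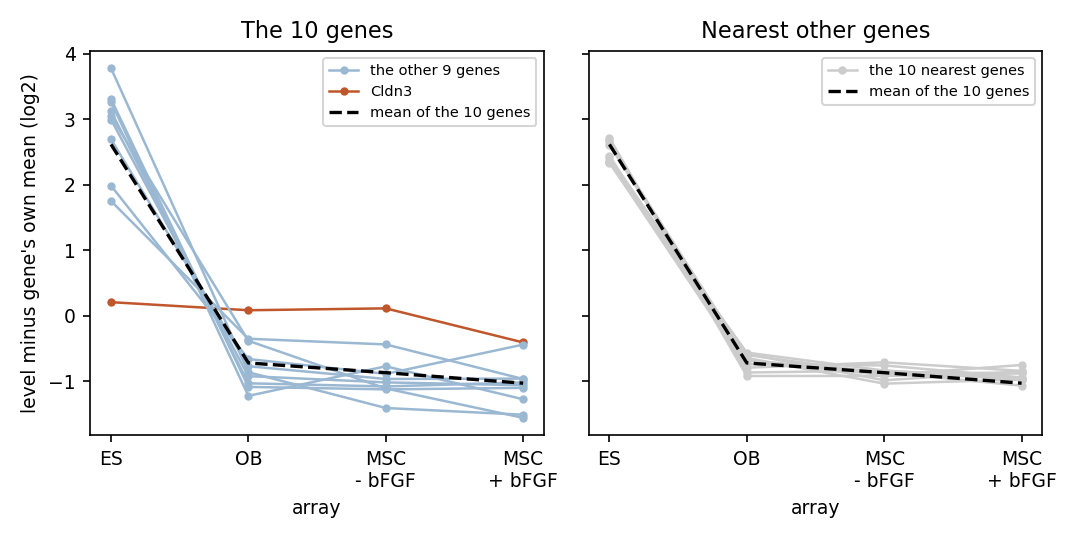
Level less the gene's own mean over the 4 arrays (log2), for the 10 genes (left, Cldn3 in orange) and for the 10 nearest other genes (right), with the mean of the 10 genes dashed in both. The mean lies at 2.62 in ES cells and at -0.72, -0.87 and -1.03 in osteoblasts and MSC without and with bFGF. Lines join the values of a gene and imply no order of the arrays.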

How the data were processed

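The values deposited by the authors are log2 levels, 1 per probe set and array, made with Affymetrix Expression Console and RMA per the submitters' processing notes. RMA makes the distributions of arrays alike, so a shift of all transcripts would not show, and low levels are compressed. The log2 scale was inferred from the values (1.40 to 14.28), and the genome build was not given in the sources used here.

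The platform annotation named 21789 of the 35556 probe sets with 1 symbol and 1621 with several, and left 12146 unnamed. Each of 19938 genes took its probe set with the highest mean. The 4 arrays, 1 per group, were compared in 6 pairs by the 2-fold rule with a floor. The number of arrays limits the precision. The counting was tested on simulated data.

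The 10 members and the lists were chosen with earlier results of these data known. Named from the lists were all genes of those with 8 or fewer, and otherwise up to 4 each way with the largest calls against ES cells or between the MSC arrays, plus the 10 genes nearest the members' mean profile and the 3 nearest Cdh1. Marker genes, neighbours of members, under-floor genes, Ctnnb1, Ctnnd1, Patj and Ezr were named outside this rule. Pkp2 (-1.50 in MSC without bFGF minus ES cells) and Spint1 (-2.21 in MSC with bFGF minus ES cells) met it and are given only here. The 8 gene lists had 100 of 104 symbols measured and the 10 marker lists 64 of 67. Promoters came from RefSeq, GRCm38.p6. Alternatives changed the threshold, the floor, the probe set rule, centring and normalization. Python 3.11.15 was used with numpy 2.4.6, pandas 2.3.3 and matplotlib 3.10.9.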

Additional observations from a re-analysis of the deposited data

How the results depend on the processing

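The calls against ES cells changed little with the settings tried. In each pair with ES cells 9 members were called lower in the main setting, and 8 with a floor at the 75th percentile. At 1.5-fold 10 were called lower in MSC with bFGF minus ES cells. In the pairs without ES cells only 2 of the 10 genes passed the main floor, so agreement of counts of 0 there says little. Under thresholds of 1.5-fold and 4-fold, no floor, a floor at the 75th percentile, the mean of a symbol's probe sets, centring, and repeated quantile normalization, the count of members called in each pair and direction kept within 1.5 times in 83 cases and not in 1, which was MSC with bFGF minus osteoblasts, where 1 gene (Krt19, at -1.18) was lower without a floor, against 0. Many of the 83 cases set a count of 0 against 0. The number of members above the floor did depend on the floor chosen. With a floor at the 75th percentile 0 members lay above it in osteoblasts, 0 in MSC without bFGF and 0 in MSC with bFGF, and with a floor at the 95th percentile of receptor genes 8, 6 and 5 did. Single differences of the members shifted by at most 0.12 with centring and 0.22 with repeated normalization, less than the SD between probe sets of the same gene, and by 0 with the mean of probe sets, since each member has 1. Of the 10 nearest genes 9 and 10 were kept with the mean of probe sets and with repeated normalization. No paired analysis was possible because each group has 1 array. Levels near background limit what can be said of differences among osteoblasts and MSC.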

Other observations

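Markers of mesothelium, a simple epithelium that carries Krt8, Krt18 and Krt19, were split. Lrrn4 stood at 7.63 in ES cells against 5.33 in osteoblasts, 5.35 in MSC without bFGF and 5.18 in MSC with bFGF, and Krt7 at 6.67 against 5.94, 5.41 and 5.39, both above the floor in ES cells alone, like most of the 10 genes. Msln, the mesothelial surface protein mesothelin, stood at 8.08 in MSC without bFGF and 8.47 in MSC with bFGF, against 5.79 in osteoblasts and 5.31 in ES cells. Upk3b and Wt1 lay under the floor in all 4 arrays. The list's summed level was 8.80 in ES cells, 8.06 in osteoblasts, 8.87 in MSC without bFGF and 9.03 in MSC with bFGF. Among keratinocyte markers Sfn, the epithelial 14-3-3 protein stratifin, was the 1 gene above the floor, at 9.26 in ES cells, 8.17 in osteoblasts and 6.75 in MSC without bFGF, and it lay at 6.12 with bFGF. The keratinocyte list's summed level was 9.69, 8.99, 8.39 and 8.16 in the same order.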
